A study of Rattus norvegicus with 6 samples.

Results

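Nudt4 encodes a diphosphoinositol polyphosphate phosphohydrolase, and it is 1 of 10411 genes that have a probe set of their own on this array. Its transcript was read by 3 of the 15866 probe sets, which are all those that the platform annotation gives to Nudt4 alone. The arrays came from the pancreas of 6 rats in a study of long-term ethanol feeding. One group of 3 rats was fed a control diet and the other group of 3 rats an ethanol diet, with 1 array a rat. Strain, age, sex, the composition of the diets and the length of feeding are not stated in the labels. Nudt4 was selected from these same arrays for its difference between the diets, so its own values are given as a description, without a test.

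Nudt4 belongs to the Nudix family of hydrolases, enzymes that mostly cleave a diphosphate bond within their substrate. Its main known substrates are the inositol pyrophosphates, highly phosphorylated inositols that carry an energy-rich diphosphate group. Kinases of the Ip6k and Ppip5k families build these molecules and Nudt3, Nudt4, Nudt10 and Nudt11 take the extra phosphate off again. Inositol pyrophosphates are known for roles in phosphate export, vesicle traffic and insulin secretion, and Nudt4 also cleaves diadenosine polyphosphates.

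The stretch directly upstream of the annotated start of Nudt4 is shown because it places the gene and its base composition. It lies, by RefSeq on the rat build GRCr8, at chr7:32091492-32091741, on the minus strand, and it is written 5′ to 3′ in the direction of transcription. Capitals mark matches to the GC box.
Nudt4 upstream: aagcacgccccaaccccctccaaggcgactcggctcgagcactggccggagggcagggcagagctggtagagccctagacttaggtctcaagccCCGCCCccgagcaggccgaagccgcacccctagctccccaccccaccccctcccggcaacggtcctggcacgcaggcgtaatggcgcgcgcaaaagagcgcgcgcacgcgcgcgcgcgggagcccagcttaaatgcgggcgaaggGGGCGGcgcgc
Of these 250 bases 72.4% are G or C, against a median of 51.2% over 33469 upstream stretches of the same length, and 94.3% of those stretches hold a lower share. The GC box GGGCGG, searched on both strands, occurs 2 times, and 30.5% of all stretches hold at least 1. No match was found on either strand to the AP-1 site TGANTCA, which 6.34% of stretches hold, to the cyclic AMP element TGACGTCA (1.59%), to the E-box CACGTG (5.59%), to the TATA box TATAAA (12.9%) or to CCAAT (34.0%). These letters are a description of the window and not of any factor's binding.

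Nudt4 was higher in the ethanol-fed rats on all 3 of its probe sets, but by very different amounts. The mean ethanol intensity was 2.70 times the control mean on probe set 1370180_at, 1.57 times on 1398847_at and 1.33 times on 1375125_at. Intensities are the deposited values on a linear scale, and differences are given as ethanol minus control on the log2(intensity + 50) scale.

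On probe set 1370180_at the control rats read 4950, 4312 and 4451 in replicates 1, 2 and 3, and the ethanol rats 12180, 12198 and 12674. The groups lay far apart, and the arrays within each were close together. The group means were 4571 ± 336 for the control diet and 12351 ± 280 for the ethanol diet (SD, n = 3), and the coefficients of variation 7.34% and 2.27%. The log2 difference was 1.43 (SE 0.13). It was the 18th largest positive difference among the 9520 tested probe sets. The pooled spread within the diets, an SD of 0.076 on the log2 scale, was smaller than that of all but 3.95% of tested probe sets. Its level stood above 96.6% of tested probe sets and far below the lowest array maximum of 163449, so the reading was not near the top of the scale.

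On probe set 1398847_at the control rats read 3035, 3617 and 2609, and the ethanol rats 2845, 5370 and 6311. Ethanol replicate 1 lay inside the control range while ethanol replicates 2 and 3 lay above it, so the groups overlapped. The means were 3087 ± 506 and 4842 ± 1792 (SD, n = 3), and the log2 difference was 0.58 (SE 0.29). The value depended on single arrays: it was 0.92 without ethanol replicate 1 and 0.35 without ethanol replicate 3. Its pooled SD of 0.46 was larger than that of 92.6% of tested probe sets.

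On probe set 1375125_at the control rats read 1179, 1406 and 1592, and the ethanol rats 2176, 1700 and 1696. The lowest ethanol array was above the highest control array, but the distance between them was small beside the spread within each diet. The means were 1392 ± 207 and 1857 ± 276 (SD, n = 3), and the log2 difference was 0.40 (SE 0.17). It ran from 0.29 without ethanol replicate 1 to 0.50 without control replicate 3.

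Of the 3 probe sets, 1370180_at and 1375125_at had every ethanol array above every control array, a state found on 11.1% of the 9520 tested probe sets. As Nudt4 was chosen for this contrast, nothing is read from that count.

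**Figure D1:**
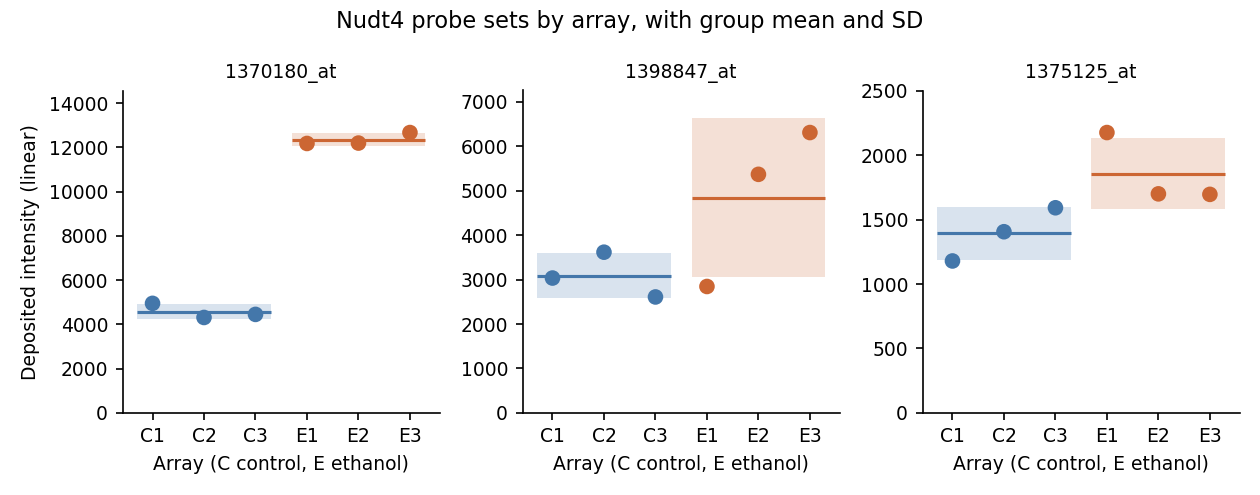
Deposited intensity (linear axis from 0) of the 3 Nudt4 probe sets on each array, with control rats (C1 to C3) in blue and ethanol rats (E1 to E3) in orange; lines are group means and bands are ± 1 SD (n = 3). The groups are widely apart on 1370180_at, E1 lies within the control range on 1398847_at, and the distance between groups is small on 1375125_at.

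The probe sets did not agree on which ethanol rat had the most Nudt4. Ethanol replicate 1 was the highest array of all on 1375125_at (2176), the lowest ethanol array on 1370180_at (12180, by a narrow margin) and the lowest ethanol array on 1398847_at (2845). Ethanol replicate 3 was the highest on 1370180_at (12674) and on 1398847_at (6311). It was the lowest ethanol array on 1375125_at (1696), but replicate 2 was nearly equal there (1700). The ethanol arrays also lay close together on 1370180_at, so their order on that probe set carries little. Control rats were ordered differently by each probe set too, with replicate 1 highest on 1370180_at, replicate 2 on 1398847_at and replicate 3 on 1375125_at.

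The gap between 2 probe sets on the same array has no meaning as a level, because probes differ in brightness, but it would stay constant if both followed the transcript alike. Between 1370180_at and 1398847_at the log2 gap was 0.70, 0.25 and 0.76 in the control rats and 2.08, 1.18 and 1.00 in the ethanol rats. All ethanol gaps were wider than all control gaps, by 0.85 in the mean. Between 1370180_at and 1375125_at the gap was 2.02, 1.58 and 1.45 in control rats and 2.46, 2.81 and 2.87 in ethanol rats. It widened by 1.02 in the mean, again without overlap.

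Between 1398847_at and 1375125_at the gap was 1.33, 1.33 and 0.70 in control rats and 0.38, 1.63 and 1.87 in ethanol rats. The ethanol gaps lay on both sides of the control gaps, and the means differed by 0.17. With the log2 values of the 3 probe sets averaged, control rats stood at 11.38, 11.48 and 11.40 and ethanol rats at 12.07, 12.25 and 12.35. The averaged difference was 0.80, and the groups did not overlap.

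**Figure D2:**
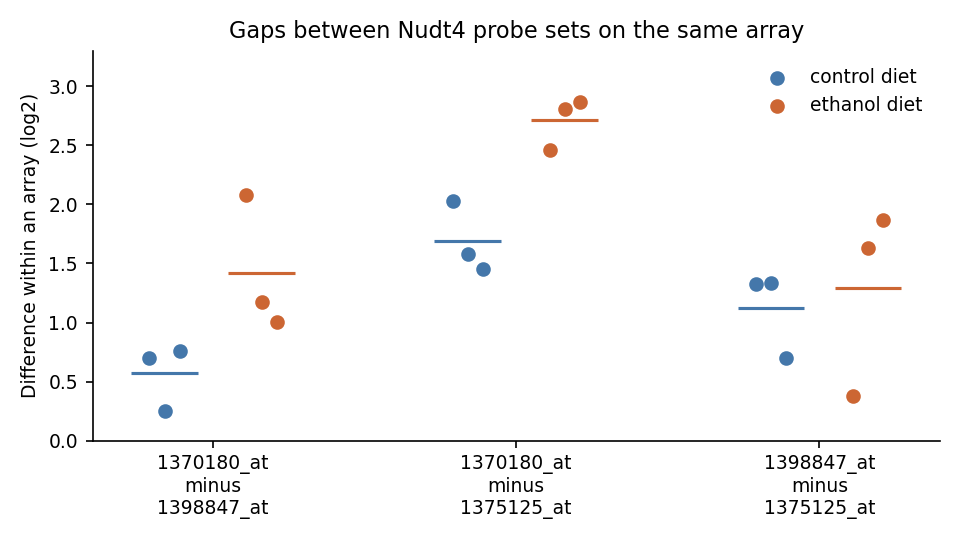
Log2 gap between each pair of Nudt4 probe sets within each array (points) and its mean (lines), control diet in blue and ethanol diet in orange, 3 rats each. Both gaps that involve 1370180_at are wider in every ethanol rat than in any control rat, while the gap between the other two probe sets overlaps between diets.

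The platform annotation names the same source sequence for 1370180_at and 1398847_at and a different one for 1375125_at. The disagreement therefore includes a pair designed on 1 source. Among 183 pairs of tested probe sets that share both a gene and a source sequence, from 168 genes, the 2 log2 diet differences lay a median of 0.21 apart. The Nudt4 pair lay 0.85 apart, and 7 pairs lay further apart. Over all 1013 pairs of tested probe sets of 1 gene the median was 0.23. For 92 genes with 3 or more tested probe sets, the range from the lowest to the highest diet difference had a median of 0.41, while that of Nudt4 was 1.02, and 4 genes had a wider range. Among the 80 genes with exactly 3 tested probe sets, 3 had a wider range than Nudt4. Choosing Nudt4 for its diet difference favours a wide gap and range, so its place among other genes is only a description. Which part of the transcript each probe set reads was not analysed here.

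**Figure D3:**
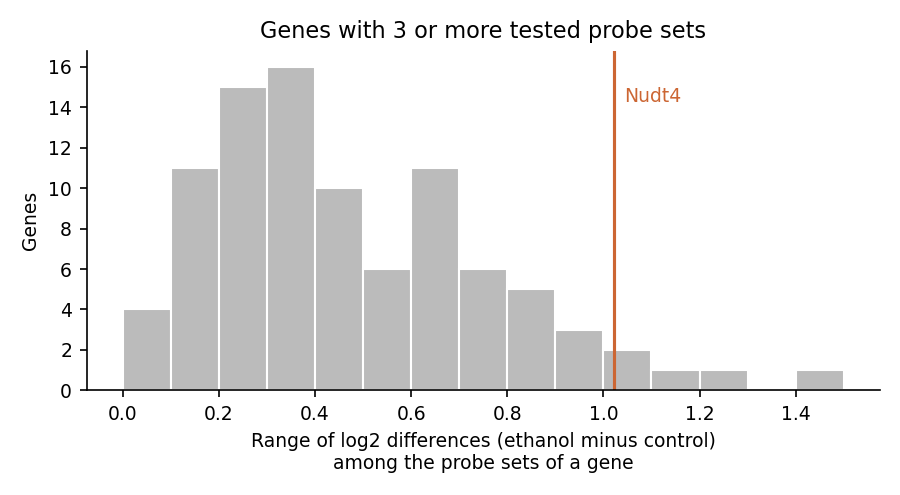
Histogram of the range of log2 diet differences among the probe sets of a gene, for the 92 genes with 3 or more tested probe sets. Nudt4 (orange line, 1.02) lies in the upper tail, a place favoured by its choice for the diet difference. The median is 0.41.

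Some cell type markers differed between the diets on the same arrays. The labelled tissue held its defining markers: 11 of 12 acinar genes had a probe set, all were tested, and their mean intensities ran from 81793 for the amylase Amy2a3 to 163511 for the carboxypeptidase Cpa1 in control rats. Of 8 marker lists, summed over the genes with a probe set, 4 did not overlap between diets. Taken singly, 26.4% of all tested genes did not overlap. The erythroid sum (4 of 6 genes) was 15433 to 22883 in control rats and 25617 to 33312 in ethanol rats, with a positive difference in all 4 genes and no overlap in 3. The adipocyte sum (4 of 6) was 3939 to 6182 and 6493 to 8256. Most of it was Lpl (mean 3380 in control rats and 5721 in ethanol rats), all 4 of its genes overlapped between diets, and 2 of the 4 differences, that of Fabp4 among them (-0.13), were negative. The duct sum (4 of 6) was 9865 to 10731 and 8635 to 9065. It was mostly Muc1 (9025 and 7471), the sole gene of the 4 without overlap, and Krt19 had a positive difference (0.49). The acinar sum (11 of 12) was 1475660 to 1492590 and 1501740 to 1561450. Of its 11 genes 8 had a positive difference and 3 did not overlap, a share near that of all tested genes. These 11 genes include the brightest readings, near the array maxima of 163449 to 171742. Whether such readings still follow the amount of RNA was not tested. No gene of these 4 lists read at or below 0 on any array. The ratio of 3′ to 5′ signal, a measure of RNA integrity, overlapped between diets for beta-actin (1.44 to 2.01 in control rats, 1.54 to 1.78 in ethanol rats) and for GAPDH (1.63 to 2.11 and 1.53 to 1.87). The part of these cell type markers in the Nudt4 difference was not tested. In whole tissue, more cells that express a gene and more transcript per cell cannot be told apart.

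Nudt3, a diphosphoinositol phosphatase of the same class, overlapped between the diets. It read 1066, 1265 and 913 in control rats and 1032, 848 and 1232 in ethanol rats, with overlapping groups. The log2 difference was -0.061 (95% interval -0.49 to 0.37, limma adjusted p = 0.888), and a dimmer Nudt3 probe set gave -0.039 (SE 0.16). The sign of the brighter one turned when control replicate 2 (0.054) or ethanol replicate 2 (0.070) was left out. The difference between Nudt3 and Nudt4 was not tested. Nudt10 and Nudt11, the remaining diphosphoinositol phosphatases, had no probe set of their own and were not analysed here.

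The other Nudix genes mostly read lower in ethanol rats, and none passed the test in either direction. The list held 24 genes besides Nudt4, of which 15 had a probe set and 11 were tested. Called means a limma adjusted p under 0.05 (Benjamini-Hochberg over all 9520 tested probe sets), which 0.436% of the 7106 tested genes met. Limma called 0 of the 11. Before adjustment, 0 had a p under 0.05 and were higher, and 5 were lower, where 7.66% of all tested genes were higher and 11.2% lower at that level. In 6 of the 11 every ethanol array lay below every control array, a state found for 15.4% of tested genes. The sign was negative for 10 of the 11, and the list median was -0.39 beside -0.011 over all tested genes. The median stayed negative under every alternative for which it was computed, from -0.42 to -0.28. It was not computed with the tested probe sets of each gene averaged. Alternatives that change the test but not the log2 differences leave it unchanged by construction.

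The Nudix gene of smallest p was Nudt18, a hydrolase of oxidised nucleoside diphosphates, which read 669, 470 and 462 in control rats and 372, 306 and 259 in ethanol rats (log2 difference -0.68, SE 0.19, limma adjusted p = 0.138). Nudt22, an enzyme acting on UDP-sugars, read 936, 921 and 1028 against 731, 564 and 674 (-0.52, SE 0.15, limma adjusted p = 0.141). Nudt7, the peroxisomal coenzyme A diphosphatase, read 1826, 1830 and 2285 against 1604, 1416 and 1116 (-0.51, SE 0.18, limma adjusted p = 0.187). Nudt14, a UDP-glucose pyrophosphatase, read 902, 745 and 711 against 671, 422 and 504 (-0.54, SE 0.19, limma adjusted p = 0.193). In each of these 4 genes the diets did not overlap, and none passed the test over all probe sets.

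Nudt21 is the subunit of the cleavage factor that helps choose polyadenylation sites and has no hydrolase role. Its log2 difference was -0.43 (SE 0.15, limma adjusted p = 0.197). Nudt6 (-0.39), Nudt16 (-0.33), Nudt16l1 (-0.056) and Adprm (-0.11), a diphosphatase listed with the family although it is not a Nudix protein, did not pass either. Nudt1, which clears oxidised purine nucleotides, was the sole member with a positive difference. It read 519, 682 and 711 in control rats and 1020, 738 and 587 in ethanol rats (0.25, SE 0.22), with overlapping groups.

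**Figure D4:**
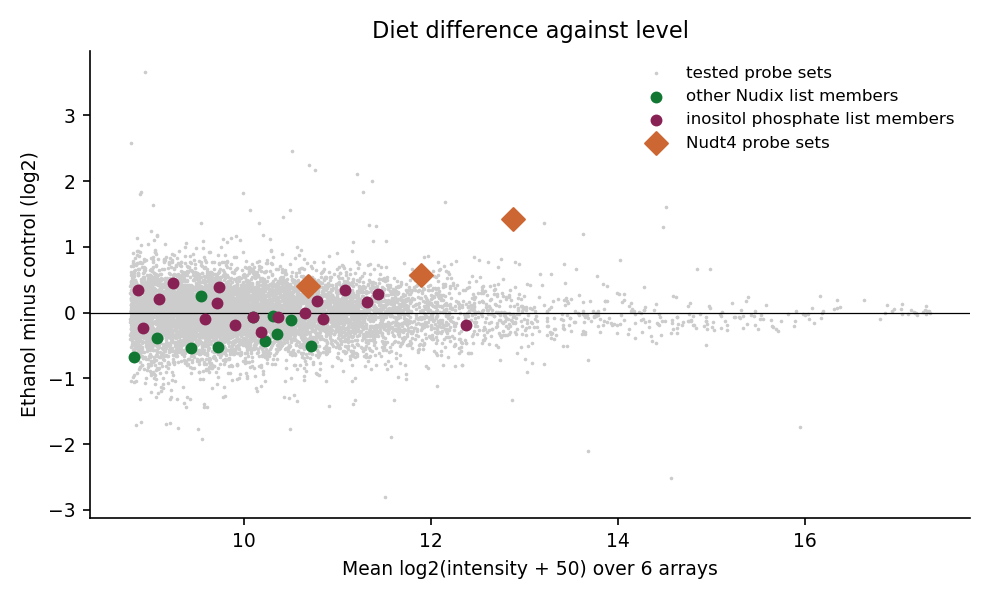
Log2 diet difference (ethanol minus control) against mean log2(intensity + 50) for the 9520 tested probe sets (grey), with the 3 Nudt4 probe sets as orange diamonds, 11 other Nudix list genes in green and 18 genes of inositol phosphate metabolism in purple; Nudt3 is in both lists and drawn in purple. The Nudt4 probe sets lie at 1.43, 0.58 and 0.40, above the other Nudix genes.

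Genes that make, break down or respond to inositol phosphates lay on both sides of 0. Of 32 listed, 23 had a probe set and 18 were tested, with 9 positive and 9 negative and a median of 0.067. Limma called 0 of them. Before adjustment 1 was higher and 0 lower at p under 0.05, beside 7.66% and 11.2% of all tested genes. The diets did not overlap for 3 of the 18, beside 26.4% of all tested genes. The list median turned negative when the filter on dim probe sets was dropped (-0.061) or raised (-0.033).

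The gene of smallest p in this list was Ip6k2, a kinase that makes the inositol pyrophosphates Nudt4 takes apart. On its brighter probe set it read 1832, 1984 and 1802 in control rats and 2101, 2751 and 2372 in ethanol rats, without overlap (0.35, SE 0.15, limma adjusted p = 0.272). Its other probe set read 1231, 1355 and 750 against 1232, 2006 and 2977, with ethanol replicate 1 inside the control range (0.82, SE 0.33, limma adjusted p = 0.237). Neither passed. Ip6k1, a second kinase of this kind, read 5077, 5905 and 5975 against 5248, 4360 and 5239 (-0.19, 95% interval -0.54 to 0.15). Minpp1, a phosphatase that degrades inositol hexakisphosphate, had a difference of -0.0056 (95% interval -0.37 to 0.36).

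Slc20a1, a phosphate importer, read 1189, 1261 and 1254 in control rats and 1065, 947 and 979 in ethanol rats (-0.30, SE 0.13, limma adjusted p = 0.283). Bpnt1, a bisphosphate nucleotidase that also acts on inositol bisphosphates, stood at 0.38 (SE 0.18) and Miox, the enzyme that opens the inositol ring, at 0.34 (SE 0.20). None of the 3 passed, and the groups overlapped for Miox. Ip6k3, Ppip5k1, Ppip5k2 and Ippk had no probe set of their own and were not analysed here.

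Among 48 genes of phosphoinositide turnover and calcium release, 41 had a probe set and 28 were tested. Limma called 0, and the median was 0.083. Before adjustment 2 were higher and 4 lower at p under 0.05, beside 7.66% and 11.2% of all tested genes. The diets did not overlap for 10 of the 28, beside 26.4%. Pip4k2c, a kinase of phosphatidylinositol 5-phosphate, read 1464, 1708 and 1718 in control rats and 785, 1019 and 1156 in ethanol rats (-0.71, SE 0.17, limma adjusted p = 0.108). Plcb3, a phospholipase C that splits phosphatidylinositol bisphosphate, read 951, 1054 and 679 against 519, 438 and 581 (-0.73, SE 0.19, limma adjusted p = 0.125). Sacm1l, a phosphoinositide phosphatase, stood at -0.57 (SE 0.17, limma adjusted p = 0.155). Pip4k2b, at 0.76 (SE 0.24, limma adjusted p = 0.161), had a dimmer, untested probe set of opposite sign (-0.76). The groups did not overlap on the tested probe sets of these 4 genes.

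Nudt16 and Nudt3 are known to remove the cap of messenger RNA as well, so genes of decapping and deadenylation were listed. Of 33, 25 had a probe set and 20 were tested, with a median of -0.093. Limma called 0, and before adjustment 0 were higher and 2 lower at p under 0.05, beside 7.66% and 11.2% of all tested genes. The diets did not overlap for 6 of the 20, beside 26.4%. Lsm3, a subunit of the ring that binds decaying messenger RNA and of the spliceosome, read 1366, 1083 and 1182 in control rats and 233, 870 and 330 in ethanol rats (-1.44, SE 0.38, limma adjusted p = 0.125). Without ethanol replicate 2 it passed (-1.94, limma adjusted p = 0.0273). The other ring subunits tested did not pass and lay on both sides of 0. Lsm2 stood at -0.36 (SE 0.14). Lsm5 stood at -0.60 (SE 0.32), and at -0.18 without ethanol replicate 1. Lsm4 read 639, 1035 and 1053 in control rats and 960, 1138 and 1124 in ethanol rats, with overlapping groups (0.26, SE 0.21).

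None of the genes beside Nudt4 on the chromosome passed the test. Of the 5 protein-coding genes on each side in GRCr8, 6 had a probe set and 4 were tested, and limma called 0 of them (0 at an unadjusted p under 0.05). Ube2n, the ubiquitin conjugase next to Nudt4, read 867, 864 and 709 in control rats and 900, 814 and 1020 in ethanol rats (0.16, 95% interval -0.20 to 0.51). Btg1, an antiproliferative factor 3 genes away on the other side, read 9421, 10825 and 10410 against 11381, 12091 and 11543 (0.19, SE 0.14, limma adjusted p = 0.479), without overlap. The mitochondrial ribosomal protein Mrpl42 stood at -0.013 (SE 0.17), with a sign that turned in 3 of the 6 fits that leave out 1 array, and the matrix proteoglycan Dcn at -0.14 (SE 0.22).

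The genes most like Nudt4 were found by the root mean square difference over the 6 arrays between log2 profiles, each taken from its own control mean, against probe set 1370180_at. Their diet differences were fixed by this choice and are given without a test. The nearest was Pim3, a serine/threonine kinase, at a distance of 0.25. It read 2283, 2905 and 2327 in control rats and 7436, 8687 and 8191 in ethanol rats, a log2 difference of 1.68. Hsph1, a large heat shock protein, followed at 0.28, with 1578, 1438 and 1578 against 2885, 3899 and 3151 (1.08).

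Jun, a subunit of the transcription factor AP-1, came next at 0.31 on the probe set of smallest distance, with 654, 760 and 938 in control rats and 1543, 2777 and 2552 in ethanol rats (1.46). Its other probe sets gave 1.83 and 2.00. The remaining 5, at distances from 0.32 to 0.37, were the ion channel subunit Cnga4 (1.16), the actin regulator Baiap2 (1.11), the membrane protein Mfrp (0.98), the Rap GTPase-activating protein Sipa1l2 (1.10) and the splicing factor Sfpq (1.06). For 3 of these, another tested probe set of the gene differed: Cnga4 gave 0.31, Sfpq 0.09 and Sipa1l2 -0.25. Cnga4 and Sfpq are also among the genes whose probe sets share a source sequence, with gaps of 0.85 and 0.97 beside the 0.85 of Nudt4.

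By the same measure the other Nudt4 probe sets were not close to 1370180_at: 1398847_at lay at 0.71, with 555 probe sets nearer, and 1375125_at at 0.75, with 868 nearer. Chosen after the values were seen, the genes nearest to 1398847_at were the protease Prss23 (distance 0.14), the co-chaperone Dnajb4 (0.15) and Tinagl1 (0.16). Prss23 read 1699, 1742 and 1289 in control rats and 1653, 2654 and 2774 in ethanol rats, with ethanol replicate 1 again in the control range. Those nearest to 1375125_at were the carboxylesterase Ces1c (0.040), Sh3gl1 (0.052) and the adaptor Nck2 (0.054). Ces1c read 1070, 1279 and 1429 against 2013, 1461 and 1601, with ethanol replicate 1 the highest. The 8 genes nearest to each of the 3 probe sets had no gene in common. That follows largely from the distances between the Nudt4 probe sets, so it is no further evidence of disagreement.

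**Figure D5:**
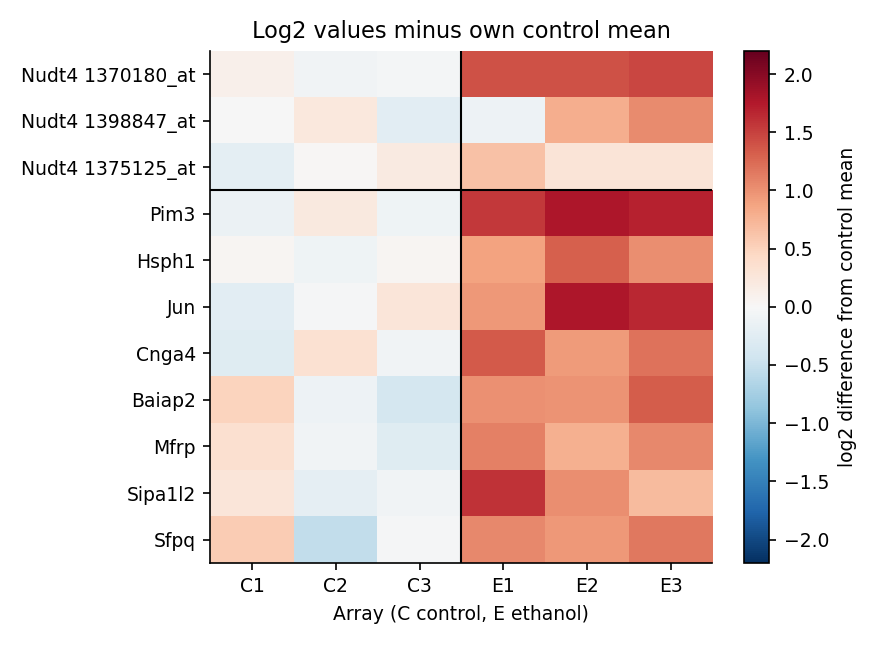
Heat map of log2(intensity + 50) minus the mean of the 3 control arrays of the same probe set, for the 3 Nudt4 probe sets (top) and the 8 genes nearest to 1370180_at (below), on control arrays C1 to C3 and ethanol arrays E1 to E3. The row of 1370180_at is evenly high in the ethanol rats, 1398847_at is high in E2 and E3, and 1375125_at is highest in E1.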

How the data were processed

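Per the labels' protocols, total RNA was turned into biotin-labelled cRNA. The deposited intensities give 1 value for each probe set on each array; their software and normalization are not stated in the labels. From the values, they are linear, background-subtracted (931 to 949 below 0 per array) and of nearly 1 distribution (medians 543 or 544), and were used as deposited. After 57 control probe sets were left out, values below 0 were set to 0, 50 was added and log2 taken, which understates differences of dim probe sets. Probe sets with a mean log2 value at or above the 40th percentile (9520, of 7106 genes) entered a limma fit (version 3.58.1, R 4.3.3) of diet with no block, and p-values adjusted by Benjamini-Hochberg. The number of arrays limits the precision. Gene names come from the platform annotation, checked by gene ID against RefSeq (GRCr8). Upstream bases are RefSeq's; Nudt4 matched 1 entry.

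Nudt4, the lists and the tests were chosen with earlier results of these data known. Named genes were the Nudt4 probe sets, called list members, the 4 of smallest p in each of 4 lists, Nudt3, Ip6k1 and Ip6k2 by name, the chromosomal neighbours and the 8 genes of most similar profile; others named, such as the rest of the Nudix list, were added after their values were seen. A gene of a list is read on its tested probe set of highest mean. The fit was tested on simulated data. The replicate labels do not say whether same-numbered rats were paired. Deviations of same-numbered rats correlated at -0.03, 0.03 and -0.14 across probe sets, and those of differently numbered rats at -0.08 to 0.09. Correlations this near 0 do not decide whether rats were paired.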

Additional observations from a re-analysis of the deposited data

How the results depend on the processing

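The log2 difference of Nudt4 kept its positive sign on all 3 probe sets with constants of 20 and 100 and with quantile normalization. It also did so in every fit without 1 array. Those fits gave 1.39 to 1.48 on 1370180_at, 0.35 to 0.92 on 1398847_at and 0.29 to 0.50 on 1375125_at. Other alternatives were a variance trend, a replicate block, filters dropped or raised to the 60th percentile, and a filter on the mean intensity. The last was chosen after seeing the data. All of these other alternatives leave a probe set's log2 difference unchanged by construction, so they say nothing about its sign. Averaging the 3 probe sets gave 0.80 in place of 1.43 or 0.40, by construction. Over all probe sets limma called 39, but 0 with no filter (2263 at an unadjusted p under 0.05), 134 with the filter at the 60th percentile, 249 with a variance trend, 6 with the replicate block, and 2 to 38 with 1 array left out; the causes were not tested. Of list members 0 were called, and 0 to 1 with 1 array left out. Nudt3 ran from -0.19 to 0.070 and Mrpl42 from -0.11 to 0.13 with 1 array left out. Whether same-numbered rats were paired is not known from the replicate labels, so the replicate block is given only as an alternative. The number of arrays limits the precision.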
